A study of Homo sapiens with 6 samples.

Results

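The actin-binding contractile genes and coronins were followed in Cal27, a tongue squamous carcinoma cell line. The cells stably carried a lentivirus with a short hairpin directed at interleukin-1β mRNA (LV-shIL-1β) or with a scrambled sequence (LV-shNC). The set comprised 10 genes, CORO1A, CORO1B, CORO1C, TAGLN, TAGLN2, CNN3, TPM1, TPM2, CALD1 and MYL9, taken as every probe set (a group of short array probes for 1 transcript) that the platform annotation assigned to 1 of these symbols alone. This gave 35 of the 54675 probe sets of the array, and 10 of the 19775 genes that such probe sets name. The genes were chosen by name with the signals of this same comparison known, so their values and calls below are a description and carry no test of the set. Both groups went through selection with puromycin (2 µg/mL, 2 weeks), and each had 3 arrays. There was 1 hairpin sequence against IL1B and 1 cell line. Nothing states that the arrays within a group are separate cultures, so p-values reflect only the variation among these arrays, which may be technical.

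Silencing was visible on both IL1B probe sets, with log2 fold changes of -0.72 and -0.74. The basal keratins KRT5 and KRT14 were bright, and all 6 of the 9 listed keratinocyte markers that had a probe set lay above the signal filter. Of the 11 listed fibroblast and smooth muscle markers 5 lay above it too, all dim beside the keratins. The filter kept probe sets with a signal above 18.6 on at least 3 of the 6 arrays. RNA integrity, read as the 3′ over 5′ log2 ratio of the ACTB control probe sets, was close in both groups, at 0.41 ± 0.13 for LV-shNC and 0.39 ± 0.05 for LV-shIL-1β (SD, n = 3).

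Coronins bind actin filaments through a β-propeller and, together with the Arp2/3 complex and cofilin, control how branched filaments are built and taken apart. Tropomyosins lie along filaments and decide which other proteins can bind. Calponins, transgelins and caldesmon attach to filaments alongside tropomyosin, and the regulatory light chain MYL9 switches myosin II on when it is phosphorylated. Many of these genes are known from smooth muscle, where serum response factor (SRF) drives them through CArG boxes, while epithelial cells use non-muscle versions for adhesion, spreading and migration.

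Of the 35 probe sets, 26 lay above the filter, covering 9 of the 10 genes, and neither probe set of MYL9 did. Of these 26, 1 was higher and 2 were lower in LV-shIL-1β at a Benjamini-Hochberg adjusted p under 0.05 in limma (11.5%), beside 7.05% of all 27566 probe sets kept, 3.68% higher and 3.37% lower. The changed probe sets belonged to CORO1A, CNN3 and TPM1. At an unadjusted p under 0.05 there were 6 higher and 6 lower. No share over all probe sets kept is given at this threshold, so this and later unadjusted counts are description only. The groups did not overlap for 9 of the 26, 4 higher and 5 lower (34.6%), against 27.9% of all probe sets kept, 15.3% higher and 12.6% lower. Only CORO1A changed by a fold over 1.5, which 0.704% of all probe sets kept did together with the adjusted threshold. The median log2 fold change was -0.04 over the 26, and 0.01 over all probe sets kept.

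**Figure D1:**
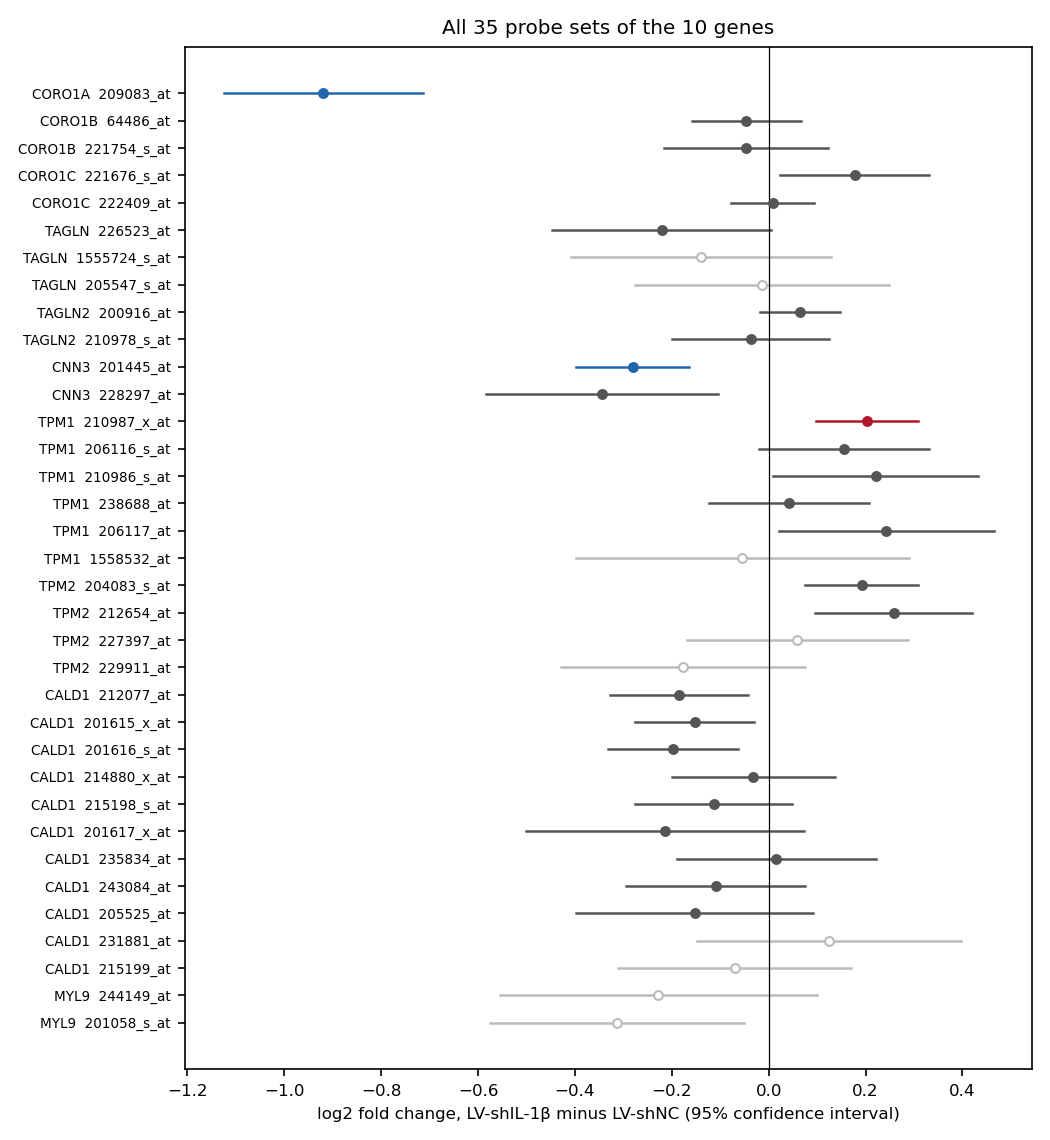
Log2 fold change (horizontal axis, LV-shIL-1β against LV-shNC) of each of the 35 probe sets (vertical axis), with lines for the 95% confidence interval; blue (lower) and red (higher) passed the adjusted threshold, dark grey did not, and open light grey points lay below the signal filter and were not tested. CORO1A stands at -0.92, while all 34 others lie between -0.34 and 0.26.

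To see what precedes these genes, promoter windows from 250 bases before to 50 bases after the transcription start were taken from RefSeq (GRCh38.p14). They matched 8 of the 10 genes with 17 windows, and none was matched for TAGLN and MYL9. Both strands were searched for the CArG box, for GGAATG (a TEAD motif) and for TGANTCA (an AP-1 motif), and no window of these genes held matches of more than 1 motif. The CArG box was in 0 of the 17 windows, against 1.29% of 35116 windows of the same length. The TEAD motif was in 3 of the 17 (2 of CALD1 and 1 of CNN3), against 14% of all windows. The AP-1 motif was also in 3 of the 17 (2 of TAGLN2 and 1 of CALD1), against 7.71%. A match of letters is not evidence that a factor binds there. For the 3 genes with a called probe set 1 window each is printed with the description, in lower case with any motif match in capitals.

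Among the coronins, CORO1A, the coronin best known from leukocytes, fell. Its single probe set had signals of 90.2, 72.8 and 84.5 on the LV-shNC arrays and of 41.5, 42.4 and 46.6 on the LV-shIL-1β arrays. All 3 LV-shIL-1β arrays lay well below the lowest control, so the groups did not overlap. The mean went from 82.5 ± 8.84 to 43.5 ± 2.70 (SD, n = 3), so that the signal fell by 47.1%. On the log2 scale the difference was -0.92 ± 0.09 (SE, 95% confidence interval -1.13 to -0.71). With a pseudocount of 16 on the signal the log2 fold change was -0.72. The window of CORO1A, on the plus strand at chr16:30183352-30183651, held none of the 3 motifs.
CORO1A: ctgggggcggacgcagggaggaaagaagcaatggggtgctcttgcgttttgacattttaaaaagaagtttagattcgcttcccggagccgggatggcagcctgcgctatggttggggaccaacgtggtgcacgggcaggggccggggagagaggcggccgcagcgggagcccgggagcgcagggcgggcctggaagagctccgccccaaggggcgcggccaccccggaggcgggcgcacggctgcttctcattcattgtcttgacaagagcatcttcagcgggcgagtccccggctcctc

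CORO1A is normally abundant in blood cells, so leukocyte markers are given beside it. Of 11 listed markers, 10 had a probe set and 4 of these lay above the filter, while PTPRC, CD53, CD3E, CD48, LCP2 and CSF1R lay below it. The summed signal of the 10 ran from 325 to 347 on the LV-shNC arrays and from 384 to 411 on the LV-shIL-1β arrays. This rise lay in HCLS1 and CD14, and the sum does not stand for leukocyte markers in general. HCLS1, a cortactin-like protein of blood cells, rose (log2 fold change 0.55 ± 0.08, SE, limma, Benjamini-Hochberg adjusted p = 0.00513), as did the lipopolysaccharide co-receptor CD14 (0.51 ± 0.08, adjusted p = 0.00454). Both calls were lost with the methods' t-test (Benjamini-Hochberg adjusted p up to 0.109). The other 2 above the filter, LAPTM5 (-0.12 ± 0.07) and ITGB2 (-0.04 ± 0.10), did not pass. The samples were cultures of the Cal27 line, with no leukocytes named among them. Any relation of these markers to the CORO1A signal was not tested. In bulk RNA, fewer cells with a transcript and less of it per cell cannot be told apart.

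The values of the other coronins lay closer to 0. CORO1B, a widely expressed coronin that acts on Arp2/3 branches, had signals of 341, 327 and 337 in LV-shNC and 313, 324 and 336 in LV-shIL-1β on its brighter probe set. The groups overlapped, with a log2 fold change of -0.05 ± 0.05 (SE, 95% confidence interval -0.16 to 0.07), and its other probe set stood at -0.05 ± 0.08. The probe sets of CORO1C, another widely expressed coronin, differed from each other. On the brighter one the signals were 1228, 1058 and 1131 in LV-shNC and 1173, 1379 and 1315 in LV-shIL-1β, a log2 fold change of 0.18 ± 0.07 that did not pass, with overlapping groups. On the dimmer one they were 905, 938 and 914 against 929, 926 and 918, a log2 fold change of 0.01 ± 0.04. Of 4 further coronins in the family list, CORO2A, CORO6 and CORO7 were above the filter, with log2 fold changes from -0.05 to 0.09. None of these passed in limma or in the methods' t-test, and 0 had an unadjusted limma p under 0.05.

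**Figure D2:**
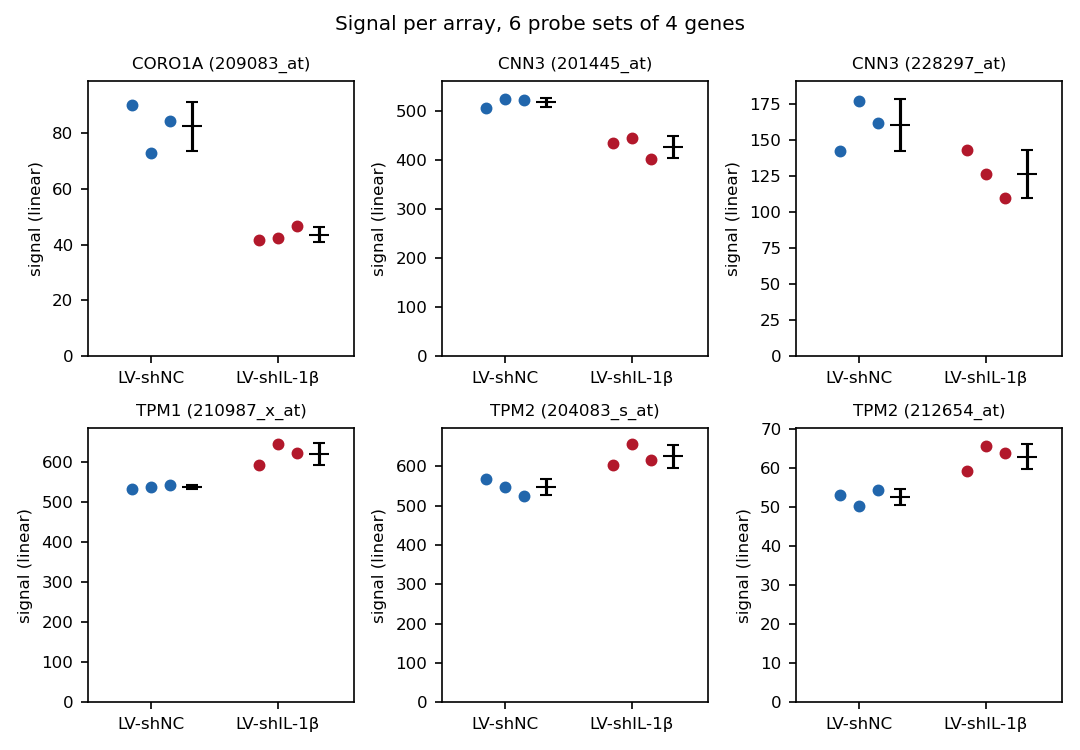
Signal on each array (vertical axis, linear scale from 0) for 6 probe sets of CORO1A, CNN3, TPM1 and TPM2, with blue points for LV-shNC arrays and red points for LV-shIL-1β arrays; black marks give group means and SD (n = 3). CORO1A drops from a mean of 82.5 to 43.5, the CNN3 means are lower and the TPM1 and TPM2 means higher, with smaller differences.

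In the calponin family, CNN3, the calponin of non-muscle cells, was lower. On its brighter probe set the signals were 506, 523 and 521 in LV-shNC and 433, 443 and 400.3 in LV-shIL-1β. The groups did not overlap, and the log2 fold change was -0.28 ± 0.05 (SE, 95% confidence interval -0.40 to -0.16). On the other probe set the signals were 142, 177 and 162 against 143, 127 and 110 (log2 fold change -0.34 ± 0.11), where LV-shIL-1β array 1 lay within the control range and the adjusted threshold was not passed. Removing LV-shNC array 2, LV-shNC array 3 or LV-shIL-1β array 3 ended the call on the brighter probe set. Blocking on replicate number and the methods' t-test ended it too, and the fold stayed between -0.24 and -0.31 on leaving out 1 array. CNN3 has windows at 2 transcription starts. The one on the minus strand at chr1:94925720-94926019 held the TEAD motif, read on its other strand and beginning 142 bases before the start, and is printed for that match. The other, at chr1:94927061-94927360 on the same strand, held none of the 3 motifs.
CNN3: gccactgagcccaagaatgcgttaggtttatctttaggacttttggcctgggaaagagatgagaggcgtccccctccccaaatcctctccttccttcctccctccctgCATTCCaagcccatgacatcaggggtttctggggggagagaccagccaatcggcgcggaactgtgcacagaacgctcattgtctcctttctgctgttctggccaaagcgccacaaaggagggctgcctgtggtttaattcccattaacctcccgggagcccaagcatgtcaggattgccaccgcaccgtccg

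The transgelins are short calponin-like proteins. TAGLN, an early marker of smooth muscle, had 1 of 3 probe sets above the filter, at 43.6, 38.9 and 42.8 in LV-shNC and 31.4, 36.5 and 40.02 in LV-shIL-1β. Only LV-shIL-1β array 3 reached into the control range, and the log2 fold change of -0.22 ± 0.10 (SE, 95% confidence interval -0.45 to 0.01) did not pass. The 2 probe sets below the filter stood at -0.14 and -0.01. TAGLN2, the transgelin of epithelial and blood cells, was bright on both probe sets. On the brighter one the signals were 1078, 1094 and 1066 against 1121, 1118 and 1148, a difference without overlap between the groups but small (log2 fold change 0.07 ± 0.04, not passed). On the dimmer one they were 928, 864 and 749 against 787, 840.4 and 841 (-0.04 ± 0.07), inside the control range, and the sign of this value changed with array weights and without LV-shNC array 1. The remaining family members CNN2 and TAGLN3 both stood at -0.01. In limma neither had an unadjusted p under 0.05, and the methods' t-test called 0 of them. CNN1 lay below the filter.

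For the tropomyosins most values lay above 0. TPM1 had 6 probe sets, and the log2 fold change was above 0 on all 5 that passed the filter, from 0.04 to 0.24. On the brightest of these the signals were 534, 539 and 542 in LV-shNC and 593, 646 and 623 in LV-shIL-1β. The control arrays lay close together and every LV-shIL-1β array was above them, with a log2 fold change of 0.20 ± 0.05 (SE, 95% confidence interval 0.10 to 0.31), and the probe set passed. Removing any single array other than LV-shIL-1β array 1 ended this call, as did blocking on replicate number, dropping the variance trend or using the methods' t-test. On the other 4 probe sets kept the groups overlapped and none passed in limma, where TPM1 had 3 of its 5 probe sets at an unadjusted p under 0.05. The identifier of the called probe set ends in _x_at, which marks probe sets that may also bind related transcripts, and a contribution of other tropomyosin transcripts to its signal was not tested. The window of TPM1, on the plus strand at chr15:63048239-63048538, held none of the 3 motifs and was 78.3% G or C.
TPM1: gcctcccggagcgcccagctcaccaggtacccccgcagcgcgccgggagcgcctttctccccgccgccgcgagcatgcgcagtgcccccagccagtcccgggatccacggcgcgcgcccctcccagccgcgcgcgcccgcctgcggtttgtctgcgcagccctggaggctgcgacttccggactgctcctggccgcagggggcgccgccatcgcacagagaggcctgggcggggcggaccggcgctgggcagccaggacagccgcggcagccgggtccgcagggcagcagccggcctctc

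TPM2, the β-tropomyosin, also had values above 0 on both probe sets that passed the filter. On the brighter one the signals were 569, 548 and 526 in LV-shNC and 603, 658 and 616 in LV-shIL-1β, with a log2 fold change of 0.19 ± 0.05 (SE, 95% confidence interval 0.08 to 0.31). On the dimmer one they were 53.3, 50.3 and 54.4 against 59.5, 65.7 and 63.9, with 0.26 ± 0.07 (0.10 to 0.42). In both cases every LV-shIL-1β array exceeded every LV-shNC array, yet neither probe set passed the adjusted threshold. The first passed with quantile normalization, with median centring, with array weights and without LV-shIL-1β array 1, and the second with array weights. The 2 probe sets below the filter stood at 0.06 and -0.18. By contrast TPM4, a short tropomyosin of non-muscle cells outside the set of 10, was lower on its brightest probe set, at 891, 989 and 877 in LV-shNC and 788, 800.1 and 735 in LV-shIL-1β (log2 fold change -0.25 ± 0.06, limma, Benjamini-Hochberg adjusted p = 0.0313). This call did not survive the removal of LV-shNC array 2, LV-shNC array 3, LV-shIL-1β array 2 or LV-shIL-1β array 3 (adjusted p up to 0.11). The other 3 TPM4 probe sets above the filter did not pass. They stood at -0.22, -0.17 and 0.44, and the last of these was dim, with LV-shNC arrays 2 and 3 below the filter and a value of 0.24 with a pseudocount of 16.

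CALD1 encodes caldesmon, which binds actin, myosin and tropomyosin and restrains the motor. It had 11 probe sets, of which 9 were above the filter. On 8 of these 9 the log2 fold change was below 0, and the values ran from -0.21 to 0.02. On the third brightest the signals were 186, 187 and 182 in LV-shNC and 151, 167 and 165 in LV-shIL-1β (-0.20 ± 0.06, SE). On the next brighter one they were 281, 262 and 268 against 234, 247 and 249 (-0.15 ± 0.06). On these and on 1 dimmer probe set (-0.11 ± 0.07) the LV-shIL-1β arrays lay entirely below the controls. On the brightest the signals were 510.4, 571 and 565 against 518, 458 and 472, and LV-shIL-1β array 1 exceeded the lowest control (-0.19 ± 0.06). No probe set of CALD1 passed the adjusted threshold in limma, 3 of the 9 had an unadjusted p under 0.05, and the methods' t-test called 0. The probe sets of CALD1 sample 1 gene and are not independent of each other, and those ending in _x_at may bind related transcripts. With quantile normalization the third brightest passed, as the brightest did with array weights.

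MYL9, the myosin light chain of smooth muscle and non-muscle cells, was at the low end of the scale. One probe set read 11.9, 10.6 and 12.4 in LV-shNC and 8.23, 9.76 and 10.2 in LV-shIL-1β, and the other read 16.7, 11.1 and 12.8 against 11.4, 12.5 and 10.4. All values lay below the filter of 18.6, so no test was made. The log2 fold changes were -0.31 and -0.23, and -0.12 and -0.10 with a pseudocount of 16. On the first probe set the groups did not overlap.

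**Figure D3:**
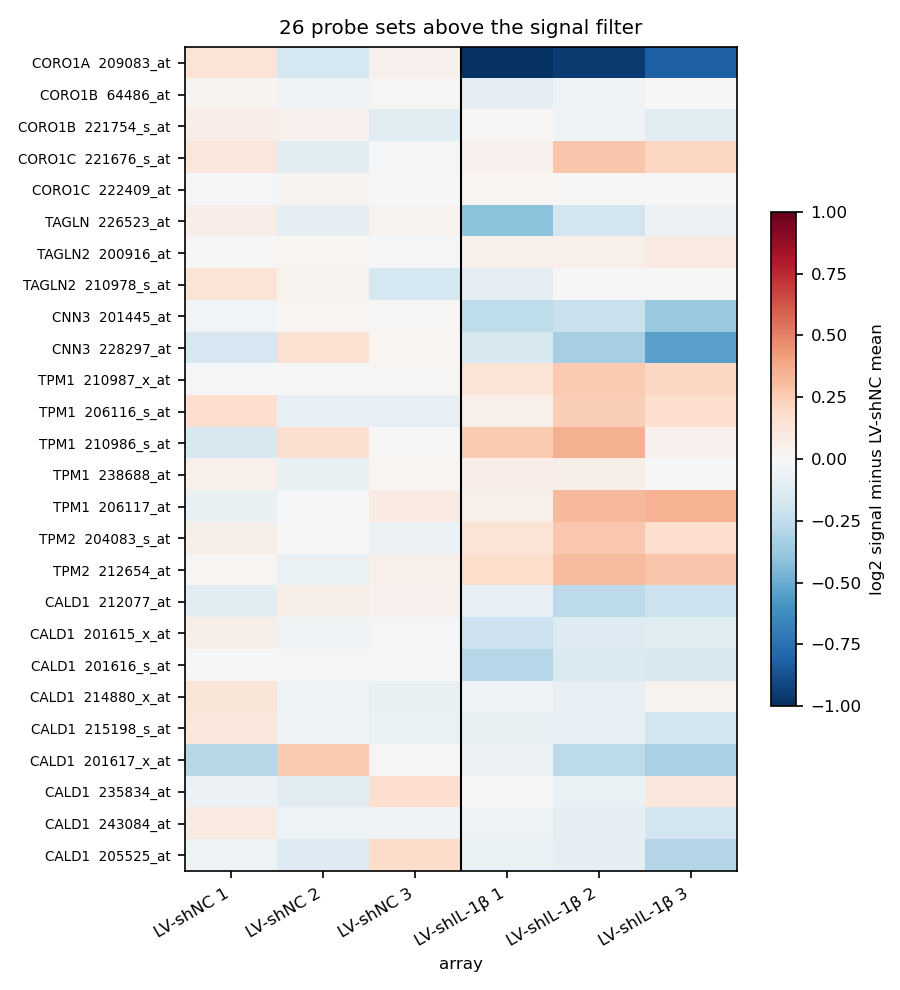
Log2 signal of each array (columns) minus the LV-shNC mean for the 26 probe sets above the filter (rows), blue below and red above that mean. CORO1A is the darkest row on all 3 LV-shIL-1β arrays, the tropomyosin rows are mostly red there, and the CNN3 rows and most CALD1 rows are blue.

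Fibroblast and smooth muscle markers are given beside CNN3, TAGLN, CALD1 and MYL9, since stromal cells express these genes strongly. All 11 listed markers had a probe set and 5 of these lay above the filter, while COL3A1, DCN, PDGFRA, MYH11, CNN1 and ACTG2 lay below it. The summed signal of all 11, those below the filter included, ran from 226 to 244 on the LV-shNC arrays and from 185 to 201 on the LV-shIL-1β arrays. This sum does not stand for such markers in general, and values of single genes follow. The proteoglycan LUM read 20.4, 29.5 and 32.6 in LV-shNC and 13.7, 13.02 and 10.3 in LV-shIL-1β, and the collagen chain COL1A2 read 25.2, 22.6 and 21.9 against 17.1, 16.02 and 15.1. Both were counted as lower in limma, but they passed the filter through the LV-shNC arrays alone, and all their LV-shIL-1β signals lay below it, so the size of the difference is uncertain (log2 fold changes of -1.14 and -0.53, or -0.61 and -0.29 with a pseudocount of 16). The other 3 above the filter, COL1A1 (-0.16), PDGFRB (-0.18) and DES (0.00414), did not pass on their brightest probe set. Dimmer COL1A1 probe sets were called lower in limma, at -1.08 ± 0.12 and -0.73 ± 0.12 (SE, Benjamini-Hochberg adjusted p = 0.00103 and 0.00702). The former read 68.2, 78.5 and 76.7 in LV-shNC and 41.2, 36.0 and 29.5 in LV-shIL-1β. Another COL1A1 probe set stood at -0.04 and did not pass. The samples were cultures of the Cal27 line, with no stromal cells named among them. Any relation of these markers to the lower CNN3 and CALD1 signals was not tested. The keratinocyte markers KRT14 (-0.35 ± 0.03, adjusted p = 0.000262) and KRT5 (-0.32 ± 0.04, adjusted p = 0.00152) fell as well, and 4 of the 6 measured did not pass. The calls of LUM, COL1A2 and KRT5 were lost with the methods' t-test, while that of KRT14 was kept.

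To place the 10 genes in the wider machinery, 89 other actin genes in 10 lists were examined, each by its brightest probe set above the filter. Of the 68 measured, 2 rose and 6 fell (11.8% called), beside 8.52% of the 12322 genes treated the same way, 4.03% higher and 4.5% lower. Their median log2 fold change was -0.02.

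Of 13 measured genes for non-muscle myosin II, its light chains, kinases and phosphatase, 0 rose and 2 fell. MYLK, the kinase that phosphorylates the light chain encoded by MYL9, had signals of 168, 180 and 174 in LV-shNC and 119, 116 and 117 in LV-shIL-1β. The groups were far apart, and the difference was -0.57 ± 0.06 on the log2 scale (SE; adjusted p = 0.000651 by Benjamini-Hochberg in limma), and a dimmer probe set fell too (-0.49 ± 0.06, adjusted p = 0.00244). MYLK kept its call under all 16 alternatives run. The myosin heavy chain MYH10 fell by 0.22 ± 0.05 on the log2 scale (adjusted p = 0.0273), a call that was lost on leaving out any single array except LV-shIL-1β array 1 (up to 0.117). Its dimmer probe set did not pass and the groups overlapped (-0.18 ± 0.08).

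The Arp2/3 complex is a partner of coronins at filament branches. Of 11 measured genes for this complex and its activators, 1 listed with the activators rose and 2 subunits fell. CTTN, cortactin, which stabilises branches, rose from 987, 1002 and 1008 to 1226, 1145 and 1193 (log2 fold change 0.25 ± 0.04, SE, limma, Benjamini-Hochberg adjusted p = 0.00674). Its other 3 probe sets above the filter did not pass, at 0.20, 0.13 and -0.03. The call was lost with blocking on replicate number and with the methods' t-test (adjusted p up to 0.0626). The subunits ARPC1B (-0.17 ± 0.04, adjusted p = 0.0434) and ARPC2 (-0.12 ± 0.03, adjusted p = 0.0261) fell slightly. The ARPC1B call was lost on leaving out any single array (up to 0.149), and that of ARPC2 on leaving out any but LV-shIL-1β array 1 (up to 0.0943). Dimmer ARPC2 probe sets did not pass, at -0.07 and -0.05. ARPC5 did not pass on its brightest probe set (-0.12 ± 0.03). It was called lower on a dimmer one (-0.26 ± 0.05, limma, Benjamini-Hochberg adjusted p = 0.0122).

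Of 16 measured genes of the cofilin pathway and of actin monomer binding, 1 rose and 1 fell. CFL2, a cofilin that severs filaments, went from 171, 174 and 184 to 228, 223 and 217 (log2 fold change 0.34 ± 0.06, SE, limma, Benjamini-Hochberg adjusted p = 0.00755), and passed on another probe set as well (0.28 ± 0.07, adjusted p = 0.0384). The call on the first was lost with blocking on replicate number and with the methods' t-test (adjusted p up to 0.0681). A dimmer CFL2 probe set above the filter did not pass (0.22 ± 0.08). TMSB10, a thymosin that holds actin monomers, fell by 0.10 ± 0.02 on the log2 scale (adjusted p = 0.032), a call lost on leaving out any single array (up to 0.113).

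In limma 0 of 4 measured genes for SRF and its coactivators passed. SRF itself stood at 0.02, MRTFA at 0.05, MRTFB at -0.00024 and FHL2 at 0.07, and none had an unadjusted p under 0.05. Likewise 0 of 13 cytoplasmic actins and cross-linkers passed in limma, 1 at an unadjusted p under 0.05, and their values ran from -0.15 to 0.10. In the smooth muscle list the actin ACTG2 and the myosin MYH11 lay below the filter. The 3 genes measured there were the actin ACTA2 (0.19), SMTN (-0.06) and DES (0.00414), and 0 passed in limma or had an unadjusted p under 0.05. The tropomodulins TMOD1 (0.19) and TMOD3 (-0.12), which cap filaments at the pointed end, did not pass either, and 0 had an unadjusted limma p under 0.05. The methods' t-test called 0 in each of these lists.

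**Figure D4:**
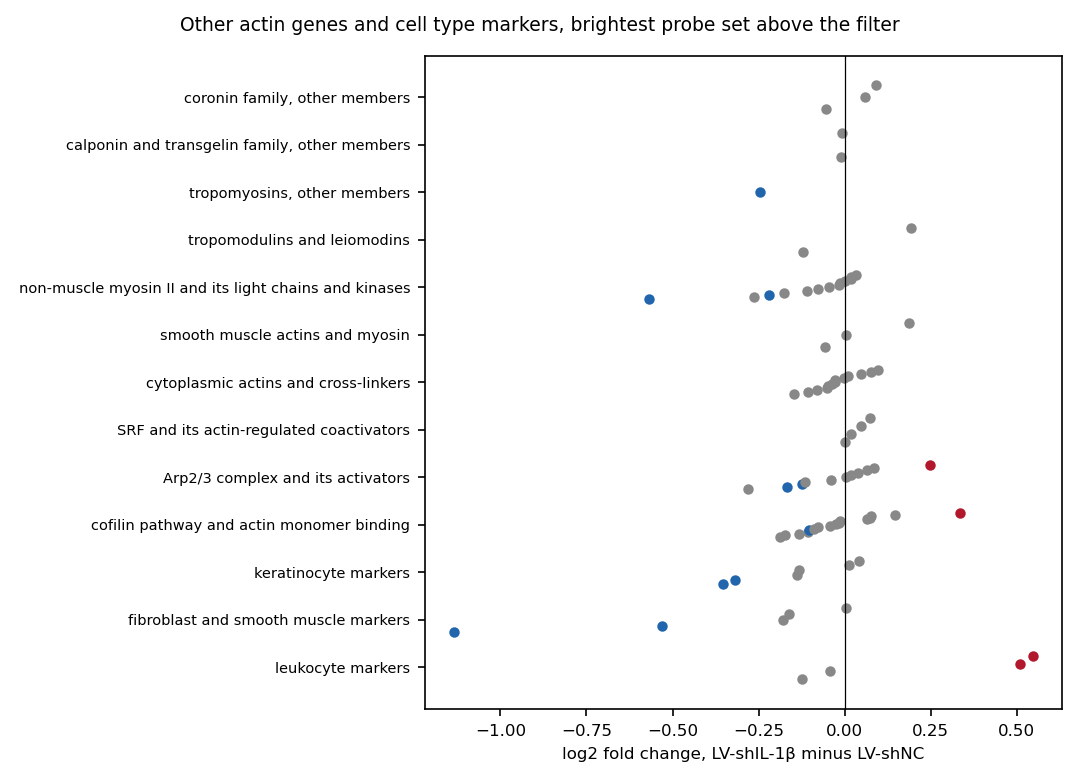
Log2 fold change (horizontal axis, LV-shIL-1β against LV-shNC) of the other actin genes and the cell type markers by list (vertical axis), 1 point for the brightest probe set of each gene above the filter; red points passed the adjusted threshold as higher, blue ones as lower, and grey ones did not pass. MYLK is the lowest actin gene at -0.57, and CFL2 (0.34) and CTTN (0.25) are the 2 that rose.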

How the data were processed

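RNA was profiled on 6 Affymetrix Human Genome U133 Plus 2.0 arrays, 3 for LV-shNC and 3 for LV-shIL-1β, grouped by the sample titles. The authors deposited linear intensities, with a single value for each probe set on each array. MAS5 is named in the submitters' processing notes, and its settings are not given in the sources read here. Signals ran from 1.38 to 10502, with array medians between 18.4 and 18.9, and precision is limited by how few arrays there are. Decimal endings spaced by a sixth (6 endings, tolerance 1e-04) occurred in 4.59% of values and in 20 of the 210 values used for the 10 genes. Such endings can come from averaging over 6 arrays, and whether values were processed across arrays, which could narrow the spread between them, was not tested.

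Signals were put on the log2 scale with no further normalization. The 62 control probe sets were left out, and 27566 probe sets above the median signal of 18.6 on at least 3 arrays were kept. The comparison, LV-shIL-1β minus LV-shNC, was fitted in limma 3.58.1 (R 4.3.3) by lmFit and eBayes, letting the variance follow mean signal. Tests were two-sided, with p-values adjusted by Benjamini-Hochberg over all probe sets kept and a threshold of 0.05. Probe sets below the filter were described from the same fit made without a filter. Tested on simulated data (27566 probe sets, 200 of them changed, 10 runs), the fit found 22.6% of 1.25-fold changes, 78.2% of those of 1.5-fold and 98% of 2-fold, with 4.29% false calls. The simulation used independent normal noise with variances drawn from this same fit. These shares therefore hold under the fit's own assumptions and do not give the error rate of the calls reported here. The platform annotation gave 1 symbol for 41097 probe sets, several for 1801 (not used) and no symbol for 11777. Of the first, 41043 were found by identifier in RefSeq (GRCh38.p14), which also gave the promoter windows. The methods' t-test stands for the Student's test that the study's general statistics section names. Its calls are Benjamini-Hochberg adjusted with no fold limit unless stated, whereas the study set a fold of 1.5 with an unadjusted p, so they are not the study's own calls.

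The 10 genes, the 13 gene lists and the alternatives were chosen with earlier results of these data known. Genes were named by a fixed rule, namely every probe set of the 10 genes, IL1B, and up to 5 called genes with the largest change in each list, and listed genes given beside them by family were added after their values were seen. One further list is not reported here.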

Additional observations from a re-analysis of the deposited data

How the results depend on the processing

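The fall of CORO1A kept its call under every alternative run except the methods' t-test after Benjamini-Hochberg adjustment, and the IL1B fall kept its call under all. At a fold over 1.5 with an unadjusted p under 0.05, a count added after seeing the data, the methods' t-test called CORO1A as the only 1 of the 26 probe sets above the filter, and 106 higher and 87 lower of all probe sets kept. Of the 26, 1 was higher and 2 were lower as reported. The higher count was 2 with quantile normalization, 2 with median centring, 4 with array weights, 0 without the variance trend, 0 when blocking on replicate number and 0 with the methods' t-test, and 0 to 2 on leaving out 1 array. The lower count was 4 with array weights, 1 with the block and 0 with the methods' t-test, and 1 to 3 on leaving out 1 array. At an unadjusted p under 0.05 there were 4 higher without the trend, 5 with the block and 4 with the methods' t-test (4 lower), and 3 to 5 higher in limma where leaving out 1 array gave 0. The sign of values near 0 changed with the setting, for the dimmer CORO1C probe set (0.0085 as reported, -0.0028 to 0.023 on leaving out 1 array, -0.015 with centring on the probe sets kept, an alternative chosen after seeing the data), for the dimmer TAGLN2 probe set (-0.12 to 0.032 on leaving out 1 array, and 0.015 with array weights), for 2 dim CALD1 probe sets (-0.068 to 0.030 on leaving out 1 array for 1 of them, and for the other -0.039 to 0.10, -0.0054 with array weights and -0.0078 with centring on the probe sets kept).

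Of the 82 genes measured in all lists, cell type markers included, 4 were higher and 10 lower, beside 8.52% of all genes called. The lower ones include LUM and COL1A2, which passed the filter through the LV-shNC arrays alone. These counts became 2 and 5 with the block and 0 and 3 with the methods' t-test. At an unadjusted p under 0.05 this t-test gave 6 higher and 19 lower, with no share over all genes given. The lower count was 5 without the trend, and 4 to 8 on leaving out 1 array, while the higher count stayed at 4. Over all probe sets kept, 1014 higher and 929 lower became 255 and 313 with the block and 106 and 161 with the methods' t-test, 1631 higher with array weights, and 272 to 1059 higher and 424 to 749 lower on leaving out 1 array, with the fewest without LV-shIL-1β array 2. The causes were not tested, and leaving out an array leaves fewer samples. Arrays with the same number did not deviate together (correlations of -0.39, -0.11 and -0.21), so the numbers were not taken as pairs. Arrays with different numbers gave correlations from -0.11 to 0.29, and a structure shared between arrays was not tested. Both MYL9 probe sets lay below the signal filter, which limits what these arrays show of this gene.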

Other observations

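Genes next to the 10 on the chromosome, an alternative view chosen after seeing the data, were called about as often as other genes. Among the 5 protein-coding genes on each side of every member in RefSeq order (GRCh38.p14), 65 were measured by a brightest probe set above the filter. Of these 1 was higher and 4 were lower (7.69%, limma, Benjamini-Hochberg adjusted p under 0.05), beside 8.52% of all genes treated the same way. Around CORO1A on chromosome 16, 6 neighbours were measured with a median log2 fold change of -0.08, and GDPD3 was the 1 called (-0.45). Around CNN3 on chromosome 1, 8 were measured with a median of -0.11, and ARHGAP29 was the 1 called (-0.49). The others were USP30 near CORO1C (-0.41), PAFAH1B2 near TAGLN (-0.34) and AKR1B10 near CALD1, which was higher (0.55). No neighbour of TPM1, TPM2, TAGLN2, CORO1B or MYL9 was called in limma.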
